A study of Mus musculus with 24 samples.

Results

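The antioxidant response genes described here are 10 genes of the NRF2 pathway and of superoxide and peroxide removal: Nfe2l2, Keap1, Nqo1, Gclc, Gclm, Txnrd1, Srxn1, Sod1, Sod2 and Cat. They were taken by RefSeq symbol from 21887 protein-coding genes of the mouse genome, and all 10 were found. The cells were N1E115, a mouse neuroblastoma line, positive for the neuronal nitric oxide synthase NOS1, grown for 3 days at 4% or at 20% oxygen. Histone marks were profiled by chromatin immunoprecipitation and sequencing. The 5 marks were the promoter and enhancer marks H3K4me3, H3K27ac and H3K4me1, the transcription mark H3K36me3 and the repressive mark H3K27me3, each with 2 libraries at 4% oxygen and 2 at 20%. All groups share the cell line and the culture time, and differ in oxygen and antibody only as far as the labels state. The values are the peaks or islands called in each library over the gene body and 10 kb either side of it, here called the window, and the main measure is the length in bp that they cover. Where 2 libraries of a group are given, replicate 1 stands before replicate 2.

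NRF2, the product of Nfe2l2, is a transcription factor that is held back by KEAP1, an adaptor that hands it to a CUL3 ubiquitin ligase. Oxidants and electrophiles modify cysteines of KEAP1, after which NRF2 accumulates, pairs with a small MAF protein and binds antioxidant response elements near its target genes. H3K4me3 is found at promoters, and H3K27ac at promoters and enhancers that are in use. H3K4me1 is typical of enhancers, H3K36me3 builds up over the bodies of genes that are being transcribed, and H3K27me3 is laid down by Polycomb over silenced genes.

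The bases upstream of the start sites show which members carry the letters of the NRF2 element next to the marked promoter. RefSeq promoter sequences (GRCm38.p6) were matched for 9 of the 10 genes, with 11 start sites. Both strands of the 250 bases upstream of each start site were searched for TGACNNNGC, the core of the antioxidant response element, and for TGAGTCA, the core bound by AP-1 and also by NRF2 relatives. Read on the other strand, an AP-1 core gives the opening letters of one form of the antioxidant core, so the searches can overlap. The antioxidant core was present upstream of 4 of the 11 start sites, those of Nfe2l2, Gclm and Sod1 and the second start site of Txnrd1, against 10.4% of 21263 promoters. The AP-1 core was present upstream of Srxn1 only among the members, at 2 positions, against 4.06% of promoters. Nqo1 had neither and is shown beside them, because its body differed from the others in H3K36me3. Capitals mark the antioxidant core, or in Srxn1 the AP-1 core. The sequences run 5′ to 3′ on the strand of the gene and end at the base before the gene record or, in Txnrd1, before the second start site.
Nfe2l2, chr2:75704664-75704913, minus strand: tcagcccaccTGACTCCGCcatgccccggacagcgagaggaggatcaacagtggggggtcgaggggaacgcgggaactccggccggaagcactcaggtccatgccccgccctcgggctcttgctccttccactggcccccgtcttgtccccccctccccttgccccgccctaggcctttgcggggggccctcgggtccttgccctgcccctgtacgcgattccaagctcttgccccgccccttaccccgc
Gclm, chr3:122245307-122245486, plus strand: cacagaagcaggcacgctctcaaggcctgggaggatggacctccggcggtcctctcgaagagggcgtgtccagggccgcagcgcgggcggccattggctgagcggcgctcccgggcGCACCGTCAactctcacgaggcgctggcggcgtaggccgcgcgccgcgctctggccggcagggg
Sod1, chr16:90220512-90220761, plus strand: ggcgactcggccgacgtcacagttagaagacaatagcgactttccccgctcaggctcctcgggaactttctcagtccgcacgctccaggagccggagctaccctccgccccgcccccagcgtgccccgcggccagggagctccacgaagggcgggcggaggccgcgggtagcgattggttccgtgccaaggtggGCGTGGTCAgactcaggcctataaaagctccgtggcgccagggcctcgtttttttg
Txnrd1, chr10:82858956-82859205, plus strand: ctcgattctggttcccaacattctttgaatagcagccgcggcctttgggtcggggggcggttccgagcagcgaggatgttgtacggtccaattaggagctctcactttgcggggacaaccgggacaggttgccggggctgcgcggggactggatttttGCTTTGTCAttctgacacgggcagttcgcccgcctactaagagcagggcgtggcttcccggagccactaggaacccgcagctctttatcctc
Srxn1, chr2:152105274-152105523, plus strand: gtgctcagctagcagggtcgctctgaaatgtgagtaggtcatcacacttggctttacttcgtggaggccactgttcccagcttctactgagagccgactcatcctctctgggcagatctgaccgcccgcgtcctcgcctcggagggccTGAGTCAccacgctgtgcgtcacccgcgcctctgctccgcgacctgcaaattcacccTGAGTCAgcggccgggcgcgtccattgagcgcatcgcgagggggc
Nqo1, chr8:107403206-107403455, minus strand: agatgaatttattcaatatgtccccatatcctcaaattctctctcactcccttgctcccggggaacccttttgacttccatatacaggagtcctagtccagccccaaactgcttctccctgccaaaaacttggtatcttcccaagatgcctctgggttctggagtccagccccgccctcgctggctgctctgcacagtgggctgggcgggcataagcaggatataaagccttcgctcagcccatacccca

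Counted from the start site, the antioxidant core lay at -240 to -232 in Nfe2l2, -134 to -126 in Gclm, -56 to -48 in Sod1 and -92 to -84 before the second start site of Txnrd1. The AP-1 cores of Srxn1 lay at -102 to -96 and -45 to -39. A GC box, GGGCGG, was present upstream of 9 of the 11 start sites, against 42.6% of promoters. ACGTG, the core of the hypoxia response element, was present upstream of Gclm and Keap1, against 17.8% of promoters. The number of CpG dinucleotides in the 250 bases ran from 2 before the first start site of Txnrd1 to 41 before Gclm. Their median was 15 over the 11 start sites and 10 over all promoters. These matches describe letters and show no binding.

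Lists held 26489 to 50496 peaks per library for H3K4me3, 60786 to 94286 for H3K27ac and 99749 to 126503 for H3K4me1, and 17535 to 20804 islands for H3K36me3 and 22718 to 34471 for H3K27me3. H3K36me3 islands held 13350093 to 25048785 reads per library and H3K27me3 islands 8479517 to 12228541, while depth is unknown for the other marks. H3K4me1 peaks covered 61.0 and 63.8 Mb in all at 4% oxygen against 105.9 and 81.8 Mb at 20%. Per the file headers, all replicate 2 libraries came from 1 flow cell. In replicate 1, all 4% libraries but that of H3K4me1 were on another flow cell than the 20% libraries, so that oxygen and flow cell cannot be told apart there. Of 9 markers of noradrenergic neuroblasts, 8 had H3K4me3 and 8 had H3K27ac in all 4 libraries. H3K4me3 was in all 4 libraries at 1 of 3 glial, 1 of 3 immune, 1 of 3 endothelial and 0 of 3 liver and muscle markers.

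In both oxygen levels the 10 genes carried the marks of active promoters. H3K4me3 and H3K27ac lay in the window of 10 of 10 genes in all 4 libraries, against 66.1% and 58.3% of all protein-coding genes. Within 1000 bp of a start site, both marks were present in all 4 libraries at 9 of 9 genes with a listed start site, against 54.5% of genes for H3K4me3 and 45.0% for H3K27ac. H3K27me3 reached none of these 9 genes within that distance, against 10.9% of genes in all 4 libraries. The windows of Nfe2l2, Nqo1, Gclc, Txnrd1, Sod1 and Sod2, 6 of the 10, held no H3K27me3 island in any library.

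The share of the window that a mark covered differed between the 10 genes. The windows ran from 25572 bp for Sod1 to 83774 bp for Txnrd1, so that a share also depends on window length. Marks at neighbouring genes count too. At Gclm, 2887 to 3843 bp of H3K4me3 per library lay in a region at Dnttip2 that ran past the window's end. Averaged over the 4 libraries, H3K4me3 covered 22.1% of the window of Keap1, 16.3% for Gclm and 14.1% for Sod1, down to 6.14% for Txnrd1 and 4.79% for Cat. The libraries of Keap1, from 21.3% to 22.8%, did not overlap those of Gclm, from 14.7% to 19.0%, while those from Gclm to Nfe2l2 in this order overlapped from each gene to the next. H3K27ac was likewise highest at Keap1 with 19.1% and Nfe2l2 with 17.8%, followed by Nqo1 with 12.3%, and lowest at Cat with 3.90%, but each gene overlapped the next in this order. H3K4me1 set 3 genes apart: it covered 25.8% of the window of Nfe2l2, 20.8% of that of Nqo1 and 17.2% of that of Txnrd1. No other member had over 8.07% in any library.

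No member passed the main test for a difference in covered length by oxygen, for any mark, and 1 passed, Gclm in H3K4me1, when flow cell was a term. The main test was limma on log2(covered bp + 1000), fitted over all protein-coding genes with the mark in at least 2 libraries, with Benjamini-Hochberg adjustment. It called 1 gene in H3K4me3, 0.00666% of those tested (the sialyltransferase gene St3gal1, named after its values were seen), and 0 in the other 4 marks. At an unadjusted p under 0.05 it counted 296 genes in H3K4me3, 725 in H3K27ac, 3869 in H3K4me1, 849 in H3K36me3 and 561 in H3K27me3. Leaving out 1 library at a time, limma called 7 to 1309 genes in H3K4me1, with 1223 without 20% replicate 1 and 1309 without 20% replicate 2, and 0 to 6 in H3K4me3, with 6 without 4% replicate 2, and no member in any. With all 4 libraries, the lowest adjusted p of a member by limma was 0.150, for Gclm in H3K4me1. For this mark alone, per the file headers, replicate number and flow cell coincide at both oxygen levels. With that block limma called 3644 genes lower at 4%, 28.1% of those tested, and 3 higher, 0.0231%, with Gclm the 1 of the 10 members called (adjusted p = 0.0348). The labels do not say that the libraries came from separate cultures, so that these p-values measure the spread between libraries, which may be technical. With 2 against 2 libraries, the smallest exact two-sided permutation p for a single gene is 0.333. Members are therefore also described by whether both 4% libraries lay above or below both 20% libraries.

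**Figure D1:**
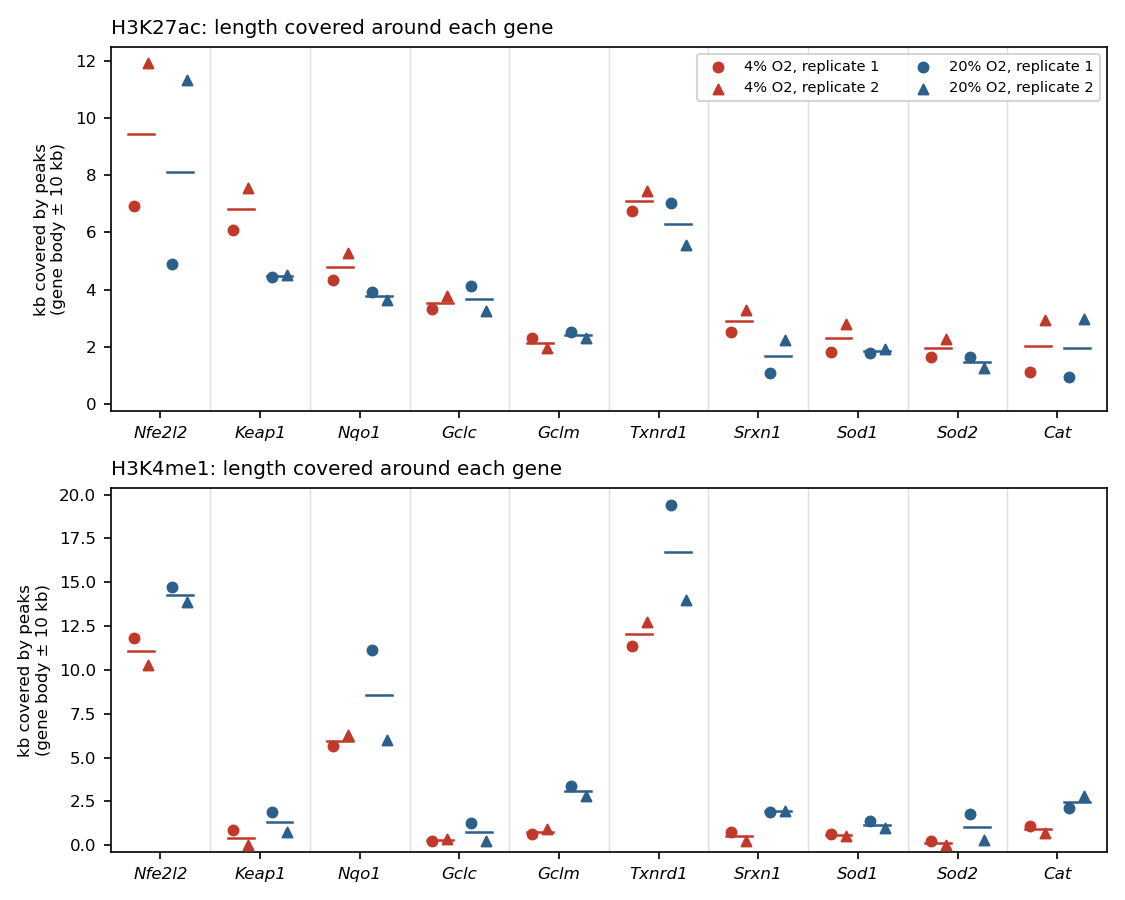
Length in kb covered by H3K27ac peaks (top) and H3K4me1 peaks (bottom) over each gene body and 10 kb either side, 1 point per library, with a short line at the mean of the 2 libraries of an oxygen level. In H3K27ac the 4% libraries lie above the 20% libraries at Keap1, Nqo1 and Srxn1, and in H3K4me1 they lie below them at 7 of the 10 genes.

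H3K27ac covered more of the window in both 4% libraries at Keap1, Nqo1 and Srxn1, 3 of 10 genes, and less at 0 of 10. Of all genes tested 24.5% were higher and 7.87% lower, so the count of the members was near the background. The median log2 ratio of 4% over 20% was 0.22 over the members and 0.09 over all genes tested. The count was 1 of 10, Keap1 alone, with the gene body and 2 kb either side, and it lay between 3 and 7 when 1 library was left out. The highest of these, 7, came without 4% replicate 1. It was 6 without 20% replicate 1 and 6 without 20% replicate 2. With fewer libraries the groups separate more easily, so leaving out a library can only keep or raise a count. The share of all genes was not counted for these settings.

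Keap1, the gene of the NRF2 inhibitor, had the widest gap between the groups in H3K27ac among the members. Its window (gene at chr9:21229730-21239332, minus strand) held 6088 and 7556 bp of H3K27ac at 4% oxygen, against 4447 and 4503 bp at 20%. Both 4% libraries were above both 20% libraries, by at least 1585 bp, with a difference of 1641 bp in replicate 1 and of 3053 bp in replicate 2, whose libraries shared a flow cell. Over the 4 libraries the log2 ratio by limma was 0.51 ± 0.21 (SE; unadjusted p = 0.056, adjusted p = 0.935). The largest part of the gap lay beyond the 3′ end of the gene, in a region 11792 to 15263 bp downstream of the start site (chr9:21224069-21227540), with 2832 and 3472 bp at 4% against 1361 and 1631 bp at 20%. H3K4me3 also lay there, with 2210 and 2130 bp at 4% against 1823 and 1579 bp at 20%, so that both marks were longer in the 4% libraries. Without that region the window held 3256 and 4084 bp of H3K27ac at 4%, against 3086 and 2872 bp at 20%, and the groups still did not overlap. The region over the start site held 2273 and 2156 bp of H3K27ac at 4% against 2186 and 2096 bp at 20%, and the groups overlapped. Within 1000 bp of the start site, H3K27ac covered 1098 and 1144 bp at 4% against 1347 and 1276 bp at 20%, which is less in both 4% libraries.

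Srxn1 encodes sulfiredoxin, which repairs overoxidised peroxiredoxins. Its window (gene at chr2:152105524-152111376, plus strand) held 2516 and 3277 bp of H3K27ac at 4% oxygen against 1106 and 2259 bp at 20%, with a log2 ratio of 0.57 ± 0.27 (SE; limma adjusted p = 0.961). The groups did not overlap, by 257 bp. A region from -2844 to -2061 bp of the start site (chr2:152102680-152103463) had peaks of 555 and 766 bp in the 4% libraries and none in either 20% library. It partly overlapped the record of the long non-coding RNA gene Gm31475. This was the only one of 61 H3K27ac regions in the 10 windows that was present in both 4% libraries alone, against 2.59% of all H3K27ac regions, and 0 of 61 were present in both 20% libraries alone, against 1.55%. With a stricter peak score there were 2 such 4% regions, and with 2 kb either side of the gene there were 0. The region over the start site ran from -843 to 936 bp and so spanned the AP-1 cores printed above. There H3K27ac covered 1364 and 1593 bp at 4% against 1106 and 1645 bp at 20%, and the groups overlapped.

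Nqo1 encodes a quinone reductase and is one of the most used readouts of NRF2 activity. Its window (gene at chr8:107388225-107403205, minus strand) held 4332 and 5274 bp of H3K27ac at 4% oxygen against 3911 and 3642 bp at 20%. The groups were 421 bp apart, and the log2 ratio was 0.28 ± 0.20 (SE; limma adjusted p = 0.985). The regions near the start site did not set the oxygen levels apart. The region from -1355 to 87 bp of it had 1167 and 1282 bp at 4% against 1322 and 871 bp at 20%. Among the regions present in all 4 libraries, the only one without overlap lay 12751 to 13345 bp downstream of the start site. It was shorter at 4%, with 391 and 511 bp against 519 and 595 bp at 20%. Peaks in a single library also counted towards the window, such as 334 bp in 4% replicate 1, 303 bp in 4% replicate 2 and 339 bp in 20% replicate 2. With the stricter peak score Nqo1 was no longer among the members above the 20% libraries.

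Nfe2l2 showed how far the libraries of a group could lie apart. Its window (gene at chr2:75675513-75704663, minus strand) held 6924 and 11924 bp of H3K27ac at 4% oxygen against 4899 and 11335 bp at 20%. Replicate 2 was far above replicate 1 at both oxygen levels, and the groups overlapped. A region inside the gene, 15251 to 20740 bp downstream of the start site (chr2:75683923-75689412), held 3376 and 4597 bp at 4% against 2316 and 4717 bp at 20%. H3K4me3 peaks of 634 and 598 bp at 4% against 747 and 784 bp at 20% lay within it, and a second H3K4me3 region beside them had 522 and 341 bp at 4% against 473 and 0 bp at 20%. By covered length the first was shorter in both 4% libraries and the second overlapped. The peak score of the first went the other way and was higher in both 4% libraries than in both 20% libraries. Its length alone therefore does not show a weaker mark at 4%. H3K4me1 covered 2589 and 1848 bp at 4% against 3316 and 2978 bp at 20% there, lower in both 4% libraries. The internal region thus carried 3 marks in all 4 libraries.

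The other 6 genes overlapped between the oxygen levels in H3K27ac. For Gclc and Gclm, the catalytic and modifier subunits of the first enzyme of glutathione synthesis, the windows held 3315 and 3769 bp (Gclc) at 4% against 4112 and 3256 bp at 20%, and 2328 and 1980 bp (Gclm) at 4% against 2526 and 2298 bp at 20%. Distances in Gclc are from the lower-coordinate end of its record. Its H3K27ac region from 47 to 1287 bp was shorter in both 4% libraries, with 666 and 738 bp against 1236 and 983 bp at 20%. A second and longer H3K27ac region of Gclc lay outside its record, from -5527 to -2450 bp (chr9:77749008-77752085). It had 2649 and 2721 bp at 4% against 2876 and 2273 bp at 20%, and the groups overlapped. Txnrd1 had 6733 and 7461 bp at 4% against 7030 and 5551 bp at 20%. Sod1, the cytosolic superoxide dismutase, had 1827 and 2789 bp at 4% against 1805 and 1936 bp at 20%. Sod2, the mitochondrial one, had 1638 and 2266 bp at 4% against 1663 and 1279 bp at 20%. Cat, which encodes the peroxide-splitting enzyme catalase, had 1143 and 2944 bp at 4% against 945 and 2965 bp at 20%. In Cat as in Nfe2l2 the libraries split by replicate rather than by oxygen. Region by region, 22 of the 61 H3K27ac regions were present in all 4 libraries. Of these 5 were longer in both 4% libraries, against 22.7% of all such regions, and 2 were shorter, against 11.1%.

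**Figure D2:**
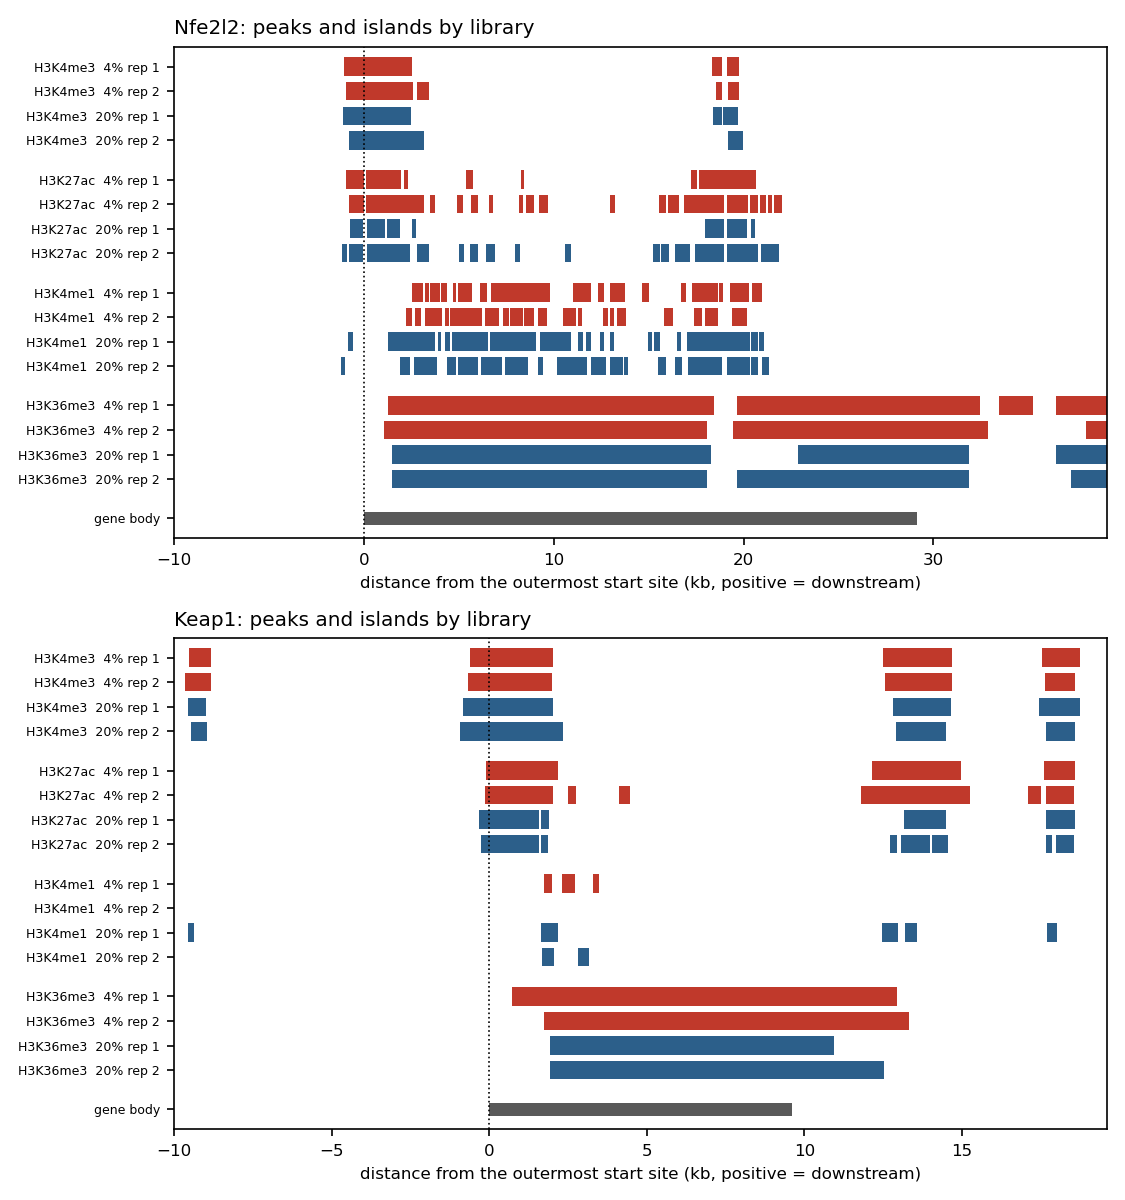
Peaks and islands of 4 marks, 1 row per library, along the windows of Nfe2l2 (top) and Keap1 (bottom), by distance in kb from the start site (dotted line), with the gene body in grey. In Keap1 the H3K27ac bars downstream of the gene are longer in the 4% libraries (2832 and 3472 bp) than in the 20% libraries (1361 and 1631 bp), and in Nfe2l2 3 marks meet inside the gene where H3K36me3 is interrupted.

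H3K4me3 lay at the start sites and in some windows also away from them. Of the regions at start sites, only that of Keap1 did not overlap between the oxygen levels. Over the whole window H3K4me3 was longer in both 4% libraries at 1 of 10 genes, Keap1, against 4.49% of genes tested, and shorter at 2 of 10, Sod1 and Cat, against 16.3%. Keap1 had 6749 and 6600 bp at 4% against 6546 and 6296 bp at 20%, a gap of only 54 bp, and Cat had 2450 and 2397 bp at 4% against 2503 and 2462 bp at 20%, a gap of 12 bp. For Keap1 the mean difference, 4% minus 20%, was -412.5 bp with 2 kb either side of the gene, so its direction depended on the flanks. The region over its start site was shorter in both 4% libraries, with 2623 and 2678 bp against 2840 and 3286 bp at 20%. The count higher was 3 without 4% replicate 1, 5 without 20% replicate 1 and 2 without 20% replicate 2, and the count lower was 4 without 4% replicate 2 and 6 without 20% replicate 2. Such counts can only stay or rise when a library is left out. Sod1 had 3342 and 3486 bp at 4% against 3952 and 3691 bp at 20%, and its mean difference kept its direction under each alternative run, although its groups overlapped with equal peak numbers. Of the 18 H3K4me3 regions present in all 4 libraries, 2 were longer in both 4% libraries and 5 shorter, against 7.8% and 14.3% of all such regions.

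Txnrd1, the gene of the cytosolic thioredoxin reductase, was marked at its inner start sites and not at its outermost one. The gene (chr10:82833951-82897724, plus strand) has start sites at positions 82833951, 82859206 and 82860341. No H3K4me3 or H3K27ac peak lay within 1000 bp of the first in any library, whereas both marks were there in all 4 libraries at the other two. Of 1996 genes with several start sites and H3K4me3 at one of them in all 4 libraries, 151, or 7.57%, likewise had none at the outermost. A single H3K4me3 region spanned both inner start sites (chr10:82858044-82863733), covering 4263 and 5486 bp at 4% oxygen against 5470 and 5175 bp at 20%. The main peak in it ranked above 97.9% to 99.2% of the peaks of its library by the authors' score. The merged H3K36me3 region began at position 82859801 and so spared the first part of the gene in all 4 libraries. The second start site is the one with the antioxidant core printed above, and the first had the lowest number of CpG dinucleotides of the 11.

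**Figure D3:**
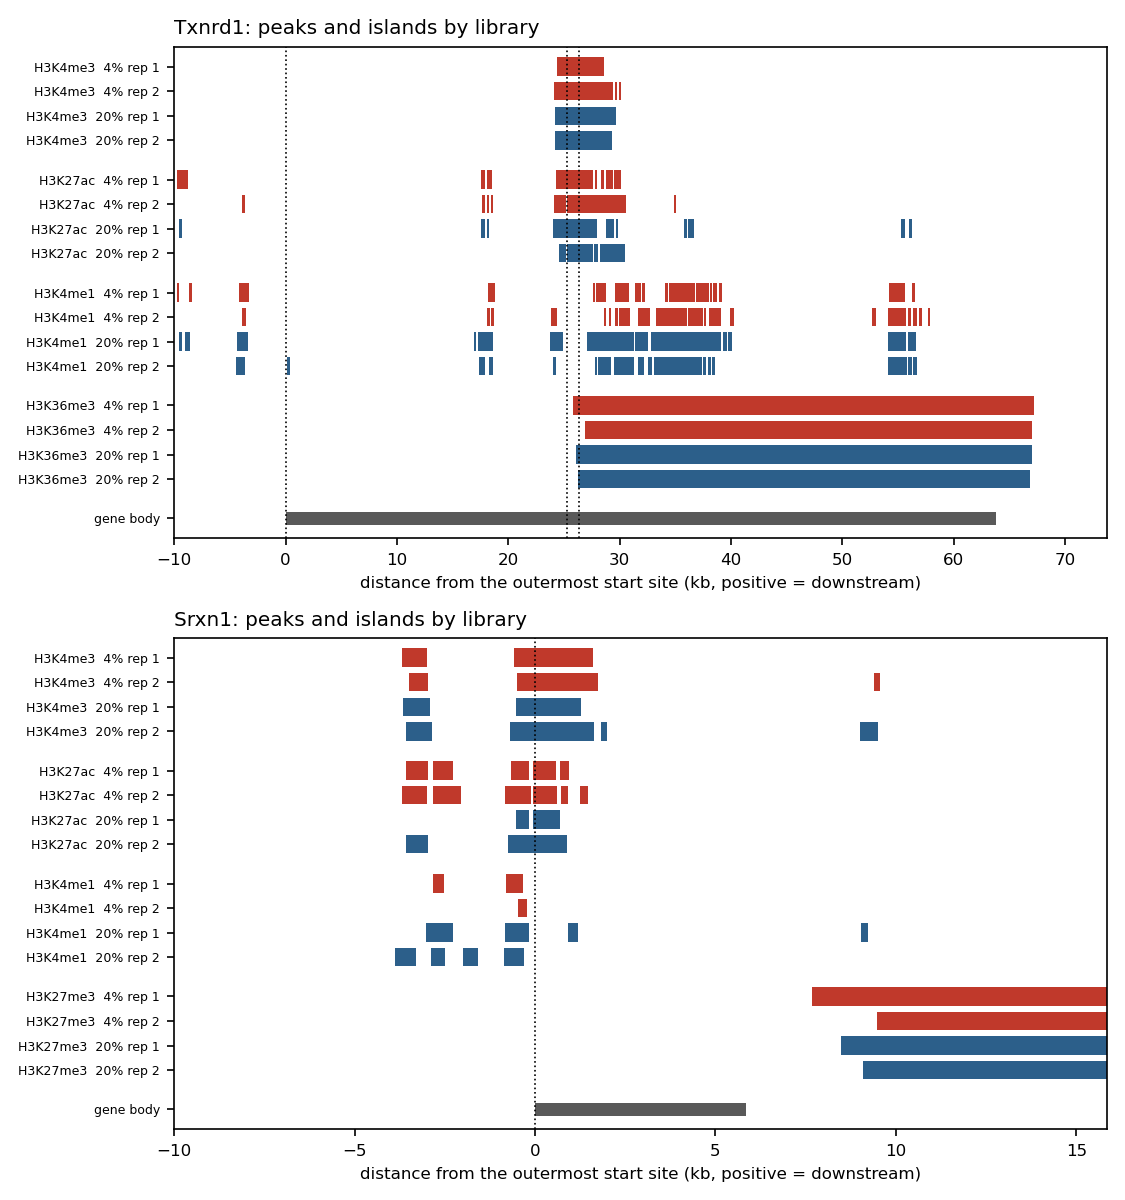
Peaks and islands of 4 marks, 1 row per library, along the windows of Txnrd1 (top) and Srxn1 (bottom), by distance in kb from the outermost start site, with start sites as dotted lines and the gene body in grey. In Txnrd1 the H3K4me3 region of all 4 libraries lies at the inner start sites (4263 and 5486 bp at 4%, 5470 and 5175 bp at 20%), and in Srxn1 a H3K27ac peak upstream of the start site is present in the 4% libraries (555 and 766 bp) and in neither 20% library.

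H3K4me1 covered less at 4% oxygen at most members, as it did at most genes. It was lower in both 4% libraries at 7 of 10 genes, against 69.4% of genes tested, and higher at 0 of 10, against 0.316%. The members' median log2 ratio was -0.59 and that of all genes tested -0.64. The count of the members was thus no different from that of genes in general, and the total length of H3K4me1 peaks was shorter in both 4% libraries. For this mark the 4% and 20% libraries of each replicate shared a flow cell. Gclm had 627 and 931 bp at 4% against 3368 and 2797 bp at 20%, the largest log2 ratio of the members with -1.20 ± 0.43 (SE; limma adjusted p = 0.150). With flow cell as a block it was -1.20 ± 0.45 (SE; limma adjusted p = 0.0348), where 28.1% of genes were called lower. The only H3K4me1 region of that window present in all 4 libraries lay 29529 to 33174 bp downstream of the start site, over the neighbouring gene Dnttip2, and ran past the end of the window. Txnrd1 had 11346 and 12736 bp at 4% against 19409 and 14019 bp at 20%, of which a block 31350 to 39160 bp downstream of the outermost start site held 5248 and 6393 bp at 4% against 7500 and 6050 bp at 20%. The whole window of Txnrd1 was lower in both 4% libraries, but this block overlapped. Nfe2l2 had 11832 and 10290 bp at 4% against 14705 and 13856 bp at 20%, also without overlap.

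The remaining genes with H3K4me1 below the 20% libraries had little of the mark. Srxn1 had 768 and 260 bp at 4% against 1890 and 1972 bp at 20%, and Cat had 1100 and 719 bp at 4% against 2150 and 2817 bp at 20%. Sod1 had 653 and 505 bp at 4% against 1362 and 967 bp at 20%, and Sod2 had 263 and 0 bp at 4% against 1758 and 305 bp at 20%. These 4 genes were separated by between 42 and 1122 bp. Of 73 H3K4me1 regions in the windows, 2 were present in both 20% libraries alone, against 6.22% of all H3K4me1 regions, and 0 in both 4% libraries alone, against 0.807%. They lay 18340 to 18774 bp downstream of the start site of Nqo1, beyond its 3′ end, with 435 and 332 bp at 20%, and 24727 to 25623 bp into Cat, with 595 and 786 bp at 20%. Of the 19 H3K4me1 regions present in all 4 libraries, 10 were shorter in both 4% libraries and 0 longer, against 46.8% and 2.38% of all such regions. With the stricter peak score there were 8 such 20% regions, and with 2 kb either side of the gene 1.

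H3K36me3 covered the bodies of 9 of the 10 genes in every library and none of the body of Nqo1. Over the other 9, islands covered from 57.9% of the body in a library of Txnrd1 to 96.8% in a library of Gclc, where the median of all genes with the mark was 80.85%. In Nqo1 the islands stopped on both sides of the gene. One ran over the neighbouring gene Nfat5 and ended 18605 bp downstream of the start site of Nqo1, and the other began at -796 bp of that start site and ran towards Nob1. Nqo1 nonetheless had H3K4me3 over 1926 and 2439 bp at its start site at 4% oxygen against 2218 and 1506 bp at 20%. It also had H3K4me3 at its 3′ end, over 1266 and 1463 bp at 4% against 1706 and 1515 bp at 20%. Of 7786 genes with H3K4me3 and H3K27ac at a start site in all 4 libraries, 415, or 5.33%, had no H3K36me3 island over the body in any library. An island that was not called does not show that the mark was absent.

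**Figure D4:**
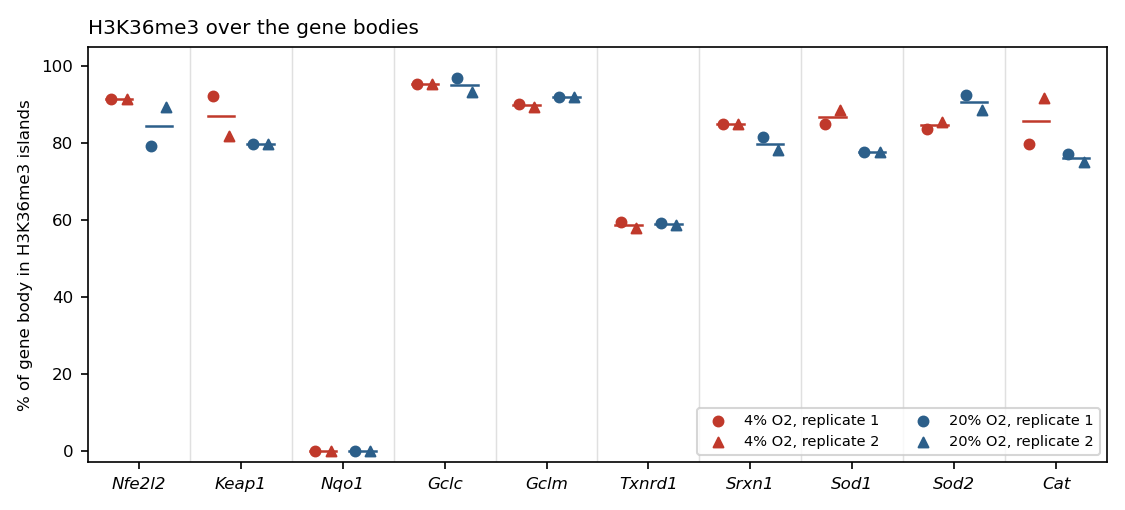
Share of each gene body covered by H3K36me3 islands, 1 point per library, with a short line at the mean of the 2 libraries of an oxygen level. Nqo1 lies at 0% in all 4 libraries and Txnrd1 between 57.9% and 59.5%, while the other genes lie at 75.2% or above.

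By covered length of H3K36me3, both 4% libraries were above both 20% libraries at 3 of 10 genes, against 10.2% of genes tested, and below them at 3 of 10, against 21.6%. Higher were Nfe2l2, with 34488 and 31488 bp at 4% against 28488 and 30688 bp at 20%, Keap1, with 12200 and 11600 bp at 4% against 9000 and 10600 bp at 20%, and Sod1, with 14733 and 14933 bp at 4% against 14333 and 14333 bp at 20%. Lower were Gclc, with 40800 and 40800 bp at 4% against 43400 and 42200 bp at 20%, Gclm, with 24615 and 26015 bp at 4% against 26615 and 26415 bp at 20%, and Sod2, with 11000 and 14000 bp at 4% against 16400 and 16200 bp at 20%. The largest of these log2 ratios was that of Sod2, at -0.37 ± 0.14 (SE; limma adjusted p = 0.843). The direction of Gclc depended on the flanks, since its body alone was 100 bp longer at 4% on average. Over the gene body alone, 5 of 9 members were higher and 2 lower. The count higher was also 5 without 4% replicate 2 and 5 without 20% replicate 2. The share of all genes was not counted for these settings, and leaving out a library can only keep or raise a count.

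Reads within the islands gave a second measure of H3K36me3, apart from their length. edgeR's quasi-likelihood test on reads per merged region, with the covered length as an offset, called 0 of 10858 regions after Benjamini-Hochberg adjustment, 0%. At an unadjusted p under 0.05 edgeR counted 965, and the alternative DESeq2 called 2. edgeR called 15 regions without 4% replicate 2, 23 without 20% replicate 1 and 50 without 20% replicate 2, none of them in a member's window. The widest difference over a member lay in the 5′ part of Nfe2l2, from 1063 to 18462 bp downstream of the start site (chr2:75686201-75703600). Its islands held 894 and 840 reads at 4% oxygen against 918 and 593 reads at 20%. With library size and length taken into account the log2 ratio was 0.39 ± 0.13 (SE; edgeR adjusted p = 0.480), with 0.53 in replicate 1 and 0.25 in replicate 2. The 3′ part of the same gene had a log2 ratio of -0.13 ± 0.12 (SE; edgeR adjusted p = 0.771). In the regions over the bodies of the other members, the log2 ratio lay between -0.23 for Gclc and 0.20 for the 5′ part of Cat.

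H3K27me3 lay only in the flanks of 4 windows, outside the gene bodies, and passed the limit of 2 libraries in 3. Per library, it covered 13.2% to 20.9% of the window of Gclm and 24.7% to 31.6% of that of Srxn1. In the window of Cat it covered 4850 bp, or 9.46%, in 4% replicate 1 and 497 bp in 20% replicate 1, and 0 bp in both replicate 2 libraries. Beside Gclm, an island upstream of the gene (chr3:122231001-122244200) held 393 and 235 reads at 4% oxygen against 326 and 204 reads at 20% (log2 ratio 0.33 ± 0.23, SE; edgeR adjusted p = 0.669). Downstream of Srxn1, an island from 7677 bp past the start site (chr2:152113201-152142800) held 1064 and 1127 reads at 4% against 977 and 963 reads at 20% (log2 ratio 0.25 ± 0.11, SE; edgeR adjusted p = 0.527). The window of Cat reached the edges of 2 long merged regions, most of which lay outside it. Reads and ratios of all these regions are for the whole region, also beyond the window. The one from chr2:103494601-103546200 held 1134 and 1148 reads at 4% against 1005 and 1081 reads at 20%, with a log2 ratio of 0.23 ± 0.12 (SE; edgeR adjusted p = 0.589). The one from chr2:103232201-103448200 held 5415 and 6339 reads at 4% against 6855 and 8751 reads at 20%, with a log2 ratio of -0.15 ± 0.12 (SE; edgeR adjusted p = 0.694). None of the 4 passed the test, and they did not share a direction. edgeR called 0 of 10177 H3K27me3 regions, 0%. At an unadjusted p under 0.05 edgeR counted 960, and the alternative DESeq2 called 0. edgeR called 38 regions without 4% replicate 1 and 128 without 4% replicate 2, none of them in a member's window. By covered length, 0 of the 3 genes tested lay above or below without overlap, against 26.5% and 5.94% of genes tested. Leaving out a library can only keep or raise these counts. Then 3 lay above without 4% replicate 2, 1 above without 20% replicate 1 and 1 below without 4% replicate 1. The window of Keap1 held the mark in 1 library, 4% replicate 2, over 1532 bp.

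**Figure D5:**
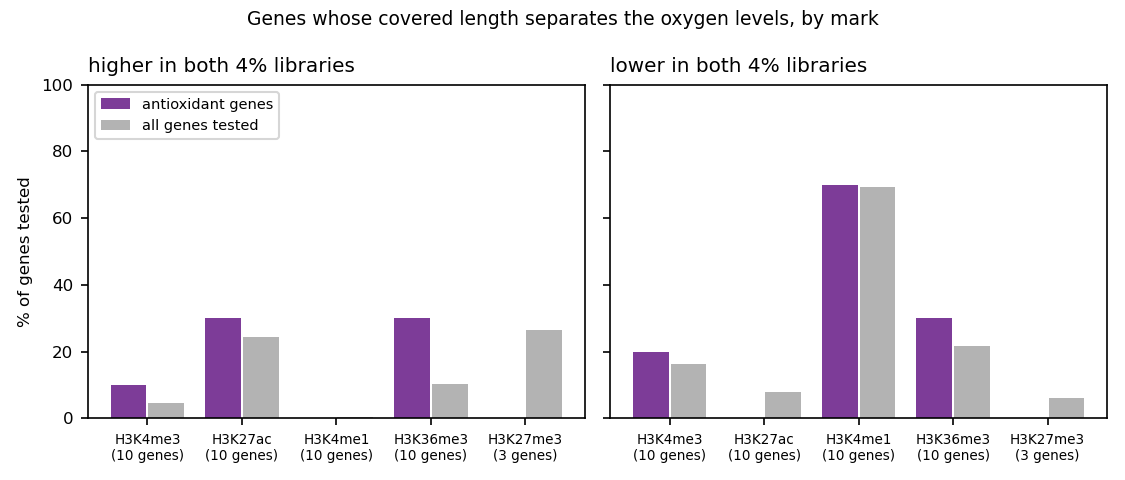
Share of genes whose covered length was higher (left) or lower (right) in both 4% libraries than in both 20% libraries, by mark, for the antioxidant genes with the mark in at least 2 libraries (number in brackets) and for all protein-coding genes tested. The largest share of the antioxidant genes is that lower in H3K4me1, 7 of 10, beside 69.4% of all genes tested.

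The partners and inhibitors of NRF2 and further genes of the same pathways were read from lists. Of 9 regulators of NRF2, 6 had more H3K27ac in both 4% libraries and 0 had less, with a median log2 ratio of 0.26, where 24.5% of all genes tested were higher and 7.87% lower, with a median of 0.09. None of them was called by limma without a block, and none of the genes of the lists below was. Maff, a small MAF partner of NRF2, had 4030 and 4455 bp at 4% oxygen against 1688 and 1996 bp at 20% (log2 ratio 0.88 ± 0.18, SE; limma adjusted p = 0.901). Mafg, another partner, had 6111 and 7124 bp at 4% against 3913 and 4590 bp at 20%. Bach1, a repressor that competes for the same elements, had 2492 and 1962 bp at 4% against 1554 and 1397 bp at 20%. Bach1 was also higher in the repressive mark H3K27me3, with 8647 and 8247 bp at 4% against 3000 and 6447 bp at 20%. In H3K36me3, 5 of the 9 were higher and 1 lower at 4%, where 10.2% and 21.6% of all genes tested were. The one lower was Mafk, a further small MAF gene, with 4600 and 4200 bp at 4% against 5600 and 4800 bp at 20%. Among those higher was Sqstm1, the selective autophagy receptor that binds KEAP1, with 27469 and 26669 bp at 4% against 20049 and 20049 bp at 20%.

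Of 18 other NRF2 targets tested, 4 had more H3K27ac in both 4% libraries and 0 less, near the 24.5% of all genes, with a median log2 ratio of 0.13. Slc7a11, the cystine transporter that feeds glutathione synthesis, had 5233 and 9682 bp at 4% oxygen against 3058 and 4844 bp at 20%. In H3K36me3 it was lower, with 41000 and 33400 bp at 4% against 45200 and 61000 bp at 20%. Of 15 genes of the peroxide and thioredoxin system tested, 2 had more and 0 less, with a median of 0.08. Txnrd3, a further thioredoxin reductase, had 1722 and 2889 bp at 4% against 562 and 551 bp at 20%, and was the gene of these 3 lists with the widest log2 ratio in H3K27ac named here, 1.06 ± 0.23 (SE; limma adjusted p = 0.901). Txnrd3 too was higher in H3K27me3, with 4729 and 3129 bp at 4% against 1729 and 0 bp at 20%. In H3K4me1, 5 of 9, 10 of 17 and 15 of 15 genes tested of the 3 lists were lower in both 4% libraries and 0 higher, beside 69.4% of all genes. For scale, 6 of 8 genes known to respond to low oxygen had more H3K27ac in both 4% libraries, with a median log2 ratio of 0.71, and 1 less. Among the markers of other cell types, Cd68, a macrophage gene, had more H3K27ac, with 3769 and 3130 bp at 4% against 1917 and 1748 bp at 20%. The other 2 of the 3 immune markers had no H3K27ac in any library. The window of Cd68 also reaches 10 kb past the gene on either side, and its part in these results was not tested.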

How the data were processed

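The submitters' processing notes name BWA, Picard, MACS2, SICER and the build mm10, without versions. Each library had its own peak list, per the file headers. For H3K4me3, H3K27ac and H3K4me1 the authors deposited MACS2 peaks with a −log10 score, most likely of q. For H3K36me3 and H3K27me3 they deposited SICER islands with a whole-number column, treated as the count of reads in the island. For the second library of each MACS2 mark the intervals came from a further file, which matched its peak summits by name and score in 100% of entries. Files of the 4 input samples were not used here.

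Libraries were grouped by the oxygen level and mark in their titles. Gene positions came from a RefSeq table of GRCm38.p6, the assembly of mm10, and start sites and strands from a RefSeq promoter table. Covered length is the merged length of peaks within the gene body and 10 kb either side. Genes with the mark in at least 2 of 4 libraries were tested with limma 3.58.1 on log2(bp + 1000), which understates changes of short lengths. Peaks that overlapped between libraries formed 1 region. Island reads were tested with edgeR 4.0.16 (quasi-likelihood, TMM, covered length as offset) at an adjusted p of 0.05. DESeq2 1.42.0 was the alternative. Since edgeR gives no SE, the SE printed with it is the absolute log2 ratio divided by the square root of its F statistic. The limma and edgeR fits were tested on simulated data in which libraries varied independently. Same-numbered libraries of the data were correlated, so these runs do not show how the fits perform here. Tables were made with Python 3.11.15 and pandas 2.3.3. A peak list depends on depth, so covered length can differ with depth alone. For H3K4me1, replicate number and flow cell coincide, per the file headers, and deviations of same-numbered libraries correlated at 0.45 across genes, so the blocked fit is given beside the main one. For the other marks the replicate 1 libraries of the 2 oxygen levels came from different flow cells, and the numbers were not taken to pair the libraries. Named genes are all 10 members and, from each other list, mark and direction, at most 3 whose covered length separated the oxygen levels, ranked by the gap between the nearest libraries of the groups. The members and lists were chosen with earlier results of these data known. Alternatives covered a stricter score (at least 5), equal peak numbers, other windows, a gap of at least 200 bp, other pseudocounts and filters, the replicate block and leaving out each library.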

Additional observations from a re-analysis of the deposited data

How the results depend on the processing

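Members were counted by whether both 4% libraries lay above or below both 20% libraries. The share of all genes was not counted for the alternative settings, and leaving out a library can only keep or raise a count. In H3K4me3, the count higher at 4% was 0 with the gene body alone, with 2 kb either side and with a gap of at least 200 bp, and the count lower at 4% was 1 with the stricter score, equal peak numbers, the gene body alone and the gap. In H3K27ac, the count higher was 1 with 2 kb either side. With the gene body alone the count higher was 2, Keap1 and Sod2, and the count lower was 1, Gclc. In H3K36me3, the count higher was 5 with the gene body alone and 5 with 2 kb either side. The H3K27me3 count could not be given for the gene body alone or with 2 kb, since no member then had the mark in 2 libraries. Leaving out 1 library moved the counts higher at 4% between 1 and 5 (H3K4me3), 3 and 7 (H3K27ac), 0 and 1 (H3K4me1), 3 and 5 (H3K36me3) and 0 and 3 (H3K27me3). It moved the counts lower between 2 and 6, 0 and 2, 7 and 10, 3 and 4, and 0 and 1. In H3K4me3, the highest counts came without 20% replicate 1 (5 higher) and without 20% replicate 2 (6 lower). In H3K27me3, the 3 came without 4% replicate 2.

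limma called 4 genes in H3K4me3, 25 in H3K27ac, 27 in H3K4me1 and 8 in H3K36me3 with no filter, and 0 in H3K4me3, 9 in H3K36me3 and 45 in H3K27me3 with the gene body alone. With equal peak numbers it called 0 in H3K4me3. Without 1 library it called between 0 and 6 genes in H3K4me3, with 6 without 4% replicate 2, and between 7 and 1309 in H3K4me1, with 1223 without 20% replicate 1 and 1309 without 20% replicate 2. The lone library left is then taken to vary like the others. On island reads, edgeR called between 0 and 50 H3K36me3 regions without 1 library, with 50 without 20% replicate 2, and between 0 and 128 H3K27me3 regions, with 128 without 4% replicate 2. DESeq2 called 2 in H3K36me3. None of these settings called a member or a region of a member's window.

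With the replicate block, limma called 35 genes in H3K4me3, 54 in H3K27ac and 3647 in H3K4me1, and edgeR 1163 regions in H3K36me3 and 1142 in H3K27me3. Under it 1 member was called, Gclm in H3K4me1, where 28.1% of genes tested were called lower at 4%. On island reads, 2 of 16 H3K36me3 regions of members' windows were called. The 5′ part of Nfe2l2 was higher (log2 ratio 0.39, edgeR adjusted p = 0.0025) and a region beside Gclm lower, where 5.81% and 4.9% of all regions were. For H3K27me3, 3 of 4 regions were called, beside Cat, Srxn1 and Gclm. These 3 lay outside the gene bodies and ran past the edges of the windows. All were higher at 4%, where 7.81% of all regions were called higher and 3.41% lower. Deviations of libraries with the same number correlated at 0.25 to 0.58 across genes or regions, by mark and measure. For H3K4me1 the numbers coincide with flow cells at both oxygen levels. For the other marks only replicate 2 shared a flow cell between oxygen levels, so that the correlation is a hint from the data and not from the design.

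By regions present at 1 oxygen level, settings chosen after seeing the data gave 1 region in both 20% libraries alone for H3K4me3 with the stricter score. For H3K27ac the regions in both 4% libraries alone numbered 2 with the stricter score and 0 with 2 kb either side. For H3K4me1 those in both 20% libraries alone numbered 8 with the stricter score and 1 with 2 kb. Of 146 values of the 19 member differences without overlap, 6 turned sign (4% minus 20%): Keap1 H3K4me3, at -174 bp with the gene body and -412.5 bp with 2 kb; Cat H3K4me3, at 44.5 bp with the stricter score and 44.5 bp with equal peak numbers; and Gclc H3K36me3, at 100 bp with the gene body and 100 bp with 2 kb. The cause of these shifts was not tested. The depth of the MACS2 marks is unknown and limits how far covered lengths compare.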
